A study of Mus musculus with 12 samples.

Results

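C8-D1A cells, an established line of mouse astrocytes, were acidified for 24 h in different ways, and the comparison described here sets added lactic acid against medium poor in bicarbonate. It used 6 of the series' 12 libraries. In 1 group of 3 libraries the medium had received 20 mM lactic acid, and in the other group of 3 its sodium bicarbonate (NaHCO3) had been lowered to 0.2 g/L. The remaining libraries were 3 controls kept at 37 °C under 5% CO2 and 3 libraries of cells under 15% CO2, and none of them entered the comparison. Genes were kept where at least 3 of the 6 libraries reached 1 TPM (transcripts per 1000000 transcripts), which held for 11886 of the 21959 genes in the table. A difference is lactic acid minus low NaHCO3 on the log2(TPM + 1) scale, so that positive values are higher with lactic acid. It is given with its standard error and an adjusted p from limma with Benjamini-Hochberg adjustment over the 11886 genes, and a gene passed the test when that p was under 0.05.

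The labels give neither the incubator gas nor the pH for these 6 cultures, and the groups cannot be matched by acidity. They also leave unsaid whether replicates were grown as separate cultures, and the p-values measure only the spread between these libraries, which may be technical. TPM values are shares of a library, and the depth behind them is unknown. In bulk RNA, fewer cells of a kind and less RNA per cell cannot be told apart.

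Lactic acid carries both a proton and lactate into the medium. Cells take lactate up through monocarboxylate transporters together with a proton, and lactate dehydrogenase turns it into pyruvate. Bicarbonate is the main buffer of culture medium and a substrate of transporters and of carboxylating enzymes, so that a lowered NaHCO3 weakens buffering without adding an organic acid. Astrocytes are known for making, releasing and exchanging lactate and for moving bicarbonate across their membrane.

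Lactic acid replicate 3 stood apart within its group. Its Spearman correlation with the other lactic acid libraries was 0.9865 to 0.9875 against 0.9976 between those, while the low-NaHCO3 libraries correlated with each other at 0.9944 to 0.9966 and across the groups values ran from 0.9224 to 0.9476. Mitochondrially encoded mRNAs took 27.8% of lactic acid 3, and 15.9% and 16.4% of lactic acid 1 and 2. The number of genes above 0 TPM was 15254 to 15419 with lactic acid and 14531 to 14747 in low-NaHCO3 medium. Control 1 carried brain transcripts that the other controls lacked (Camk2a, a neuronal kinase, at 438 TPM), so only controls 2 and 3 are set beside the 6 libraries, as a description outside the test. Values of a gene follow the replicate order 1, 2, 3.

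Of the 11886 genes, 7687 differed between the groups (64.7%). Higher with lactic acid were 4872 genes (41.0%) and higher in low-NaHCO3 medium 2815 genes (23.7%). The counts given below for each gene list are to be read beside these shares. The median difference over all genes was 0.15, and scaling by median of ratios, which moved that median to 0.0001, gave 8026 genes past the threshold in nearly equal parts, 3996 and 4030. Each difference below can therefore be read against 0.15 as well as against 0. A difference of at least 1 log2 unit was passed by 1262 genes with lactic acid (10.6%) and by 469 genes in low-NaHCO3 medium (3.95%). The ranges of the groups did not overlap for 8446 genes (71.1%), with 43.7% higher with lactic acid and 27.3% higher in low-NaHCO3 medium. Without lactic acid 3 the number past the threshold was 8353.

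**Figure D1:**
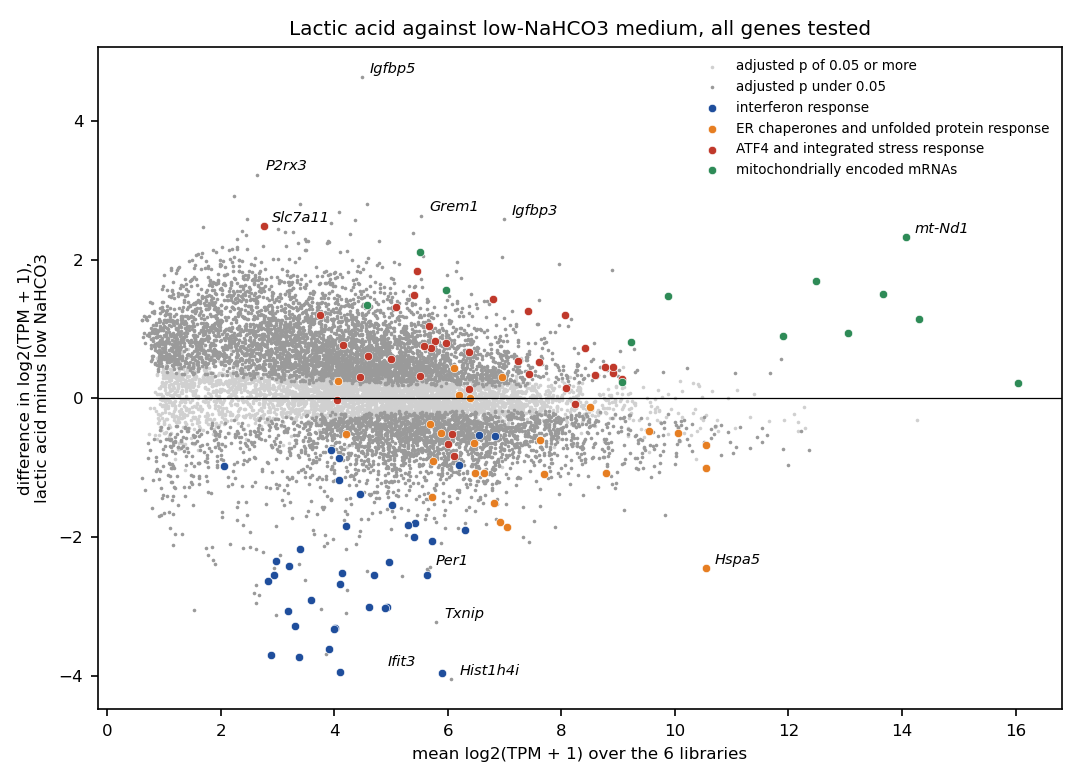
Difference in log2(TPM + 1), lactic acid minus low NaHCO3 (vertical axis), against mean log2(TPM + 1) over the 6 libraries (horizontal axis) for the 11886 genes tested, with 4 gene lists in colour. Interferon genes (blue) lie below 0, mitochondrially encoded mRNAs (green) above 0, and Hspa5 and Txnip stand at -2.44 and -3.23.

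Controls 2 and 3 showed which group lay away from the untreated cells. Among the 1262 genes at least 1 log2 unit higher with lactic acid, the mean of these controls was nearer the lactic acid mean for 1193 (94.5%). Among the 469 genes at least 1 log2 unit higher in low-NaHCO3 medium it was nearer the lactic acid mean for 449 (95.7%). For most of these genes, in both directions, the low-NaHCO3 mean was thus the one further from the controls, a description with no test. Longer transcripts were more often higher with lactic acid, with a median difference of 0.02 in the 2967 genes with the shortest transcripts and 0.30 in the 2967 with the longest, and the part of length in these results was not tested.

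The 4 genes whose promoters are printed here carry the main contrasts: Ifit3 of the interferon response, Hspa5 of the endoplasmic reticulum (ER), Txnip of glucose uptake control and Slc7a11 of cystine import. The sequences are the 250 bases before the start site, 5′ to 3′ on the gene's strand, from RefSeq on GRCm38.p6. Ifit3 is on the plus strand at chr19:34583279-34583528, Hspa5 on the plus strand at chr2:34771840-34772089, Txnip on the plus strand at chr3:96557707-96557956 and Slc7a11 on the minus strand at chr3:50443614-50443863. Capitals mark matches, on either strand, to 4 short motifs. These are the interferon-stimulated response element in Ifit3 (GAAA, 2 bases of any kind, GAAA), the ER stress element in Hspa5 (CCAAT, 9 bases of any kind, CCACG), a paired E-box as known from Txnip (CACGAG, 5 bases of any kind, CACGAG) and the C/EBP-ATF response element in Slc7a11 (TGATGNAA).
Ifit3: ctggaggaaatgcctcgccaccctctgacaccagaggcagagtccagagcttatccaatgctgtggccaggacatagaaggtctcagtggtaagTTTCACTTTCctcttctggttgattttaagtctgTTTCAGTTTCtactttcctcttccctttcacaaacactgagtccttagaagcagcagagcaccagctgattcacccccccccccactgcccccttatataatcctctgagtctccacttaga
Hspa5: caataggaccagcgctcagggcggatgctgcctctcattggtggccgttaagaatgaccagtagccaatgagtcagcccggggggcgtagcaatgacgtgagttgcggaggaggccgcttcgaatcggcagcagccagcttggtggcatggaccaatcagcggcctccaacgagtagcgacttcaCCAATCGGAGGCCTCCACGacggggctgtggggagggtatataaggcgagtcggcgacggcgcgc
Txnip: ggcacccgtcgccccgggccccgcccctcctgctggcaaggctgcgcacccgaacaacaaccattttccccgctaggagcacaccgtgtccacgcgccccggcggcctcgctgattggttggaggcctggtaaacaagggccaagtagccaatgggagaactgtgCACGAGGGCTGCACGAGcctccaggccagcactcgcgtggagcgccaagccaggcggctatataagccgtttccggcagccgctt
Slc7a11: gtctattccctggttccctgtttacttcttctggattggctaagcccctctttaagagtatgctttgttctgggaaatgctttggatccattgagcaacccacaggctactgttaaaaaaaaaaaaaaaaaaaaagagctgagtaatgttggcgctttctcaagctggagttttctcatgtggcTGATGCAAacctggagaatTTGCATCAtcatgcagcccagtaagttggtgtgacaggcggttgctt

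The matches of Ifit3 began 156 and 122 bases before the start site, that of Hspa5 65 bases, that of Txnip 85 bases and those of Slc7a11 66 and 47 bases. The shares that follow were counted in windows from 250 bases before the start site to 50 bases after it, longer than the sequences printed. Of 27025 mouse genes with such a window, 3.99% held the interferon motif, 0.137% the ER motif and 4.51% the C/EBP-ATF motif. Txnip alone held the paired E-box, whose spelling was taken from it. The interferon list held its motif in 18 of the 28 members with a window (38 listed), the ER list in 9 of 22 (26 listed) and the ATF4 list in 12 of 32 (37 listed). Among genes at least 1 log2 unit apart, 48 of 346 genes higher in low-NaHCO3 medium had the interferon motif in a window (13.9%). Of those higher with lactic acid, 28 of 943 had it (2.97%), against 3.79% of all tested genes with a window. The C/EBP-ATF motif was in a window of 3.47% and 3.5% of the same 2 sets, against 2.65% of tested genes. The ER motif was in a window of 5 of 346 genes (1.45%) and 1 of 943 (0.106%), against 14 of 9333 tested genes (0.15%). A match describes the letters of a window and is not evidence that a factor bound there.

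Interferon response genes were higher in low-NaHCO3 medium as a group. Of the 38 members, all tested, 37 passed in that direction and 0 in the other, beside 23.7% and 41.0% of all genes, with a list median of -2.47. Interferons signal through surface receptors to a set of antiviral effectors, several of which bind foreign RNA. Among these effectors, Ifit3 (ENSMUSG00000074896), which binds other IFIT proteins on viral RNA, was at 13.1, 15.7 and 13.6 TPM with lactic acid and at 219, 263 and 220 TPM in low-NaHCO3 medium. The groups were far apart, and controls 2 and 3 stood lower still, at 4.63 and 6.5 TPM. The difference was -3.96 ± 0.10 (adjusted p = 1.32e-06).

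The near-identical Ifit3b differed by -3.94 ± 0.11, and reads shared by the pair may have been divided between them. Oas3, an enzyme that makes the messenger activating RNase L, was at 1.06, 0.908 and 1.14 TPM with lactic acid against 23.4, 33.3 and 21.5 TPM (-3.71 ± 0.16). Ifi44 (-3.73), Gbp2, a GTPase that attacks vacuoles of parasites (-3.62), Mx2 (-3.29) and Dhx58, an RNA helicase related to RIG-I (-3.06), had the same direction. Usp18 removes ISG15 from proteins and restrains interferon signalling, and was at 3.75, 4.68 and 3.79 TPM against 47.2, 59 and 44.2 TPM (-3.33 ± 0.13). Irf7, a transcription factor that amplifies interferon production, was at 2.77, 4.76 and 5.17 TPM with lactic acid and at 48.3, 57 and 45.2 TPM in low-NaHCO3 medium (-3.32 ± 0.19, adjusted p = 8.12e-06). Both regulators and effectors were therefore among the genes furthest apart. The 1 member that did not pass was Bst2 (tetherin), named after its values were seen, at 94.6, 101 and 46.8 TPM against 97.1, 132 and 109 TPM (adjusted p = 0.113). Lactic acid 3 was the low value there, and under median-of-ratios scaling all 38 passed.

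**Figure D2:**
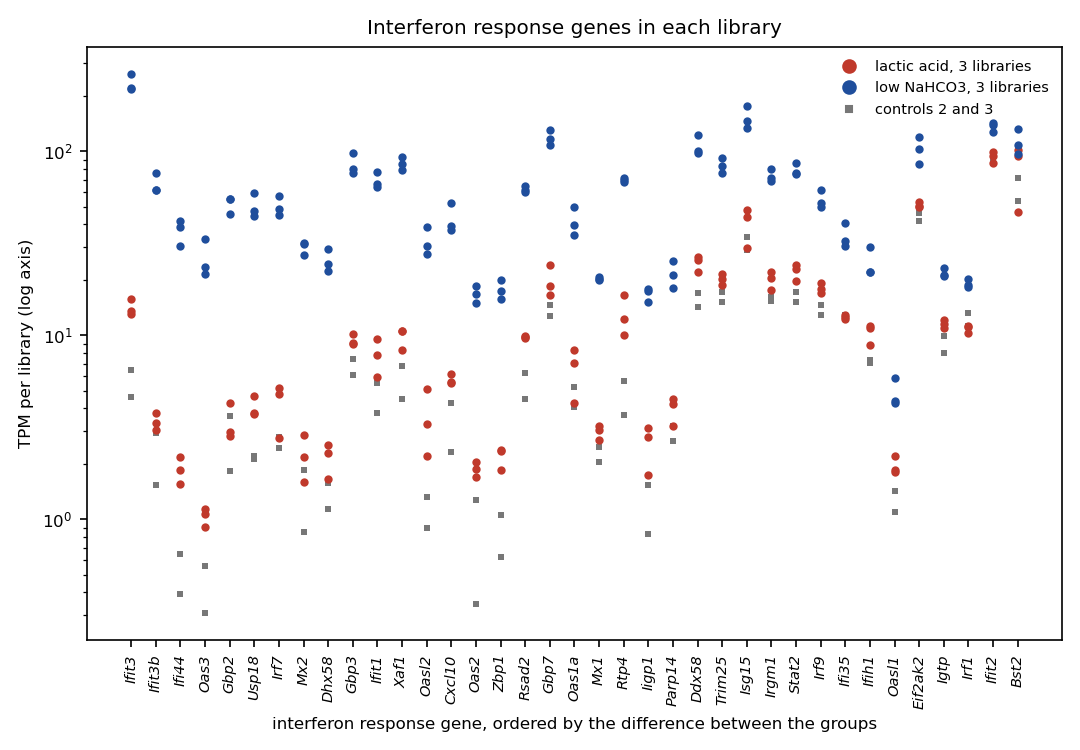
TPM (log axis) of 37 of the 38 interferon response genes in each library, ordered by the difference between the groups, with lactic acid in red, low NaHCO3 in blue and controls 2 and 3 as grey squares. The 3 low-NaHCO3 values lie above the 3 lactic acid values for every gene but Bst2, at the right end.

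Antigen presentation by MHC class I, which interferon is known to raise, had the same direction in most members. Of 15 members tested of 16 listed, 10 were higher in low-NaHCO3 medium and 0 with lactic acid (median -0.75). Tap1, a subunit of the transporter that loads peptides, was at 6.92, 5.12 and 6.78 TPM against 26.3, 28.7 and 26.7 TPM (-1.97 ± 0.12, adjusted p = 9.65e-06). The loading factor Tapbp (-1.06), the immunoproteasome subunit Psmb10 (-1.08), the proteasome activator Psme2 (-0.89) and the class Ib molecule H2-T23 (-0.93) also passed. For H2 genes, reads of related copies may have been divided.

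Among NFkB factors and their feedback inhibitors, 9 of 14 were higher in low-NaHCO3 medium and 2 with lactic acid (median -0.40). The inhibitors Tnfaip3 (A20), at 5.9, 6.64 and 4.49 TPM against 20.9, 18.5 and 18.8 TPM (-1.62 ± 0.13), Tnip2 (-1.21) and Nfkbia (-1.08) and the subunit Relb (-1.37) passed. Tnip1, another binding partner of A20, had the opposite direction (0.93 ± 0.12). Of 16 chemokines and cytokines tested (27 listed), 4 were higher in low-NaHCO3 medium and 6 with lactic acid. These shares were near the 23.7% and 41.0% of all genes, so no direction is given for the list. Cxcl10, an interferon-induced T-cell attractant, was at 5.52, 6.18 and 5.57 TPM against 37.2, 39.3 and 52.3 TPM (-2.69 ± 0.13), and Ccl5 (-1.91) and Il11 (-1.88) followed it. The monocyte attractants Ccl7 (1.24) and Ccl2 (0.88) were higher with lactic acid.

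Chaperones of the ER formed another group that was higher in low-NaHCO3 medium. Of 25 members tested of 26 listed, 17 were higher there and 3 with lactic acid (median -0.65), and under median-of-ratios scaling the counts were 20 and 1. Hspa5 (BiP, ENSMUSG00000026864), the chaperone that holds the ER stress sensors inactive, was at 686, 710 and 540 TPM with lactic acid and at 3590, 3226 and 3666 TPM in low-NaHCO3 medium (-2.44 ± 0.13, adjusted p = 7.39e-06). Controls 2 and 3, at 1235 and 1223 TPM, fell between the groups, so that Hspa5 stood below both controls with lactic acid and above both in low-NaHCO3 medium. Manf, a secreted survival factor of the ER, was at 70.1, 71.4 and 64.8 TPM against 242, 229 and 285 TPM (-1.85 ± 0.10), and its controls at 128 and 125 TPM were also between the groups.

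The disulfide-related factor Creld2 (-1.78), the ER membrane protein Selenos (-1.51) and the Hspa5 co-chaperone Sdf2l1 (-1.43) passed in the same direction. For Sdf2l1 the controls, at 97.2 and 107 TPM, were instead above both the lactic acid values of 36.8, 34.2 and 23.9 TPM and the low-NaHCO3 values of 83.2, 83.7 and 89.6 TPM. The members higher with lactic acid were named after their values were seen. They were the sensors Atf6 (0.30) and Ern1 (0.25) and the chaperone Hspa13 (0.43). Ddit3 (CHOP), the death-linked factor of prolonged ER stress, was at 56.1, 46.4 and 48.8 TPM against 74.7, 89 and 75.7 TPM (-0.65 ± 0.10).

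Targets of ATF4, the transcription factor of the integrated stress response and of amino acid shortage, had the opposite direction to the ER chaperones. Of 35 members tested of 37 listed, 28 were higher with lactic acid and 3 were higher at low NaHCO3 (median 0.56), and with median-of-ratios scaling 23 and 4. Slc7a11 (ENSMUSG00000027737), the cystine-glutamate exchanger that feeds glutathione synthesis, was at 15.6, 15.8 and 13.9 TPM with lactic acid and at 1.49, 2.35 and 1.82 TPM in low-NaHCO3 medium (2.49 ± 0.13, adjusted p = 6.92e-06). Controls 2 and 3, at 17.2 and 15.7 TPM, were close to the lactic acid libraries. Cth, which makes cysteine from cystathionine, was at 97, 90.7 and 62 TPM against 22.9, 25.8 and 18.6 TPM (1.83 ± 0.18). A gene of cysteine import and a gene of its synthesis were thus both lower in low-NaHCO3 medium.

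The serine enzyme Psph (1.31), the mitochondrial folate enzyme Aldh1l2 (1.43) and the factor Atf5 (1.49) also passed. Asns, which makes asparagine, was at 479, 448 and 396 TPM against 274, 272 and 255 TPM (0.72 ± 0.09), and the pseudokinase Trib3 differed by 0.82 ± 0.18. Atf4 mRNA itself was at 564, 544 and 427 TPM against 356, 368 and 389 TPM (0.45 ± 0.12, adjusted p = 0.00914). The 3 members higher in low-NaHCO3 medium were Ppp1r15a (GADD34, -0.84), which restores translation, Ddit3 (-0.65) and the stress factor Nupr1 (-0.52), of which Ppp1r15a and Nupr1 were named after their values were seen.

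Glutamine and glutamate genes resembled the ATF4 list. Of 11 tested of 15 listed, 8 were higher with lactic acid and 1 were higher at low NaHCO3 (median 0.88). The neutral amino acid carrier Slc38a2 was at 120, 122 and 108 TPM against 35.1, 36 and 29.4 TPM (1.77 ± 0.10), with controls at 139 and 138 TPM. The glutamine carrier Slc1a5 (1.58) and the transaminase Gpt2 (1.20), which joins glutamate to pyruvate, passed too.

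MondoA is a transcription factor that senses sugar phosphates and raises Txnip and Arrdc4, arrestin-like proteins that limit glucose uptake. Txnip (ENSMUSG00000038393) was at 18.1, 15.6 and 18 TPM with lactic acid and at 163, 152 and 194 TPM in low-NaHCO3 medium (-3.23 ± 0.11, adjusted p = 2.15e-06). The lactic acid values lay close to controls 2 and 3, at 11.8 and 12.9 TPM. Arrdc4 was at 1.9, 1.75 and 1.55 TPM against 11.7, 11.4 and 10.3 TPM (-2.15 ± 0.11). Of 7 members tested of 8 listed, 4 were higher in low-NaHCO3 medium (the others were Arrdc2, -1.32, and Arrdc3, -0.61) and 1 with lactic acid, Arrdc1 at 0.36 ± 0.11, which came to -0.0083 under quantile normalization.

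**Figure D3:**
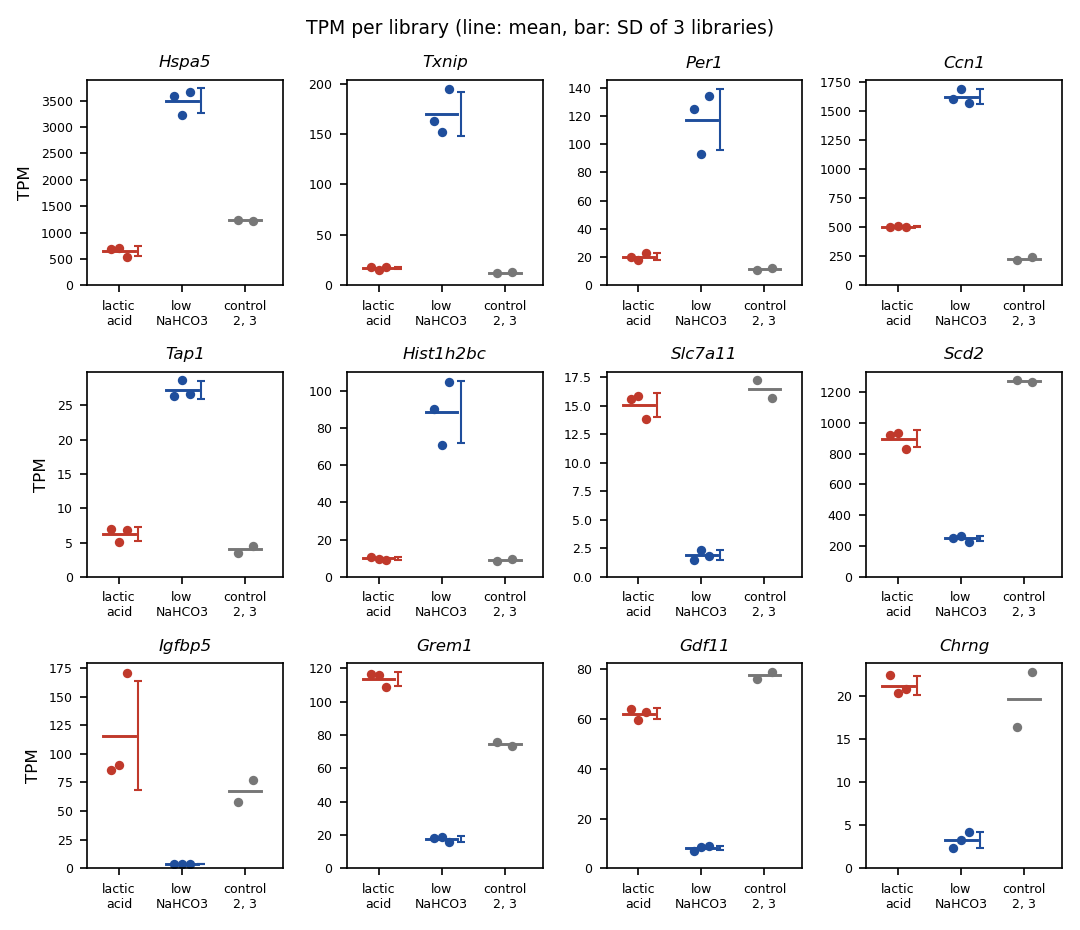
TPM of 12 genes in each lactic acid library (red), each low-NaHCO3 library (blue) and controls 2 and 3 (grey), with lines for means and bars for the SD of 3 libraries. The ranges of the red and blue points do not overlap in any panel, and the controls lie between the groups for Hspa5, Igfbp5 and Grem1.

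Genes of lactate transport and conversion had no shared direction. Of 15 listed, 8 were below the filter, among them the exporter Slc16a3 at no more than 0.403 TPM and, at 0 in all 6 libraries, the importer Slc16a7 and the lactate receptor Hcar1. Of the 7 tested, 2 were higher with lactic acid (4 without lactic acid 3) and 2 were higher at low NaHCO3 (1 without lactic acid 1, low NaHCO3 1 or low NaHCO3 2). Ldha, the subunit of lactate dehydrogenase typical of muscle, was at 626, 632 and 451 TPM against 517, 507 and 500 TPM (0.15 ± 0.13, 95% interval -0.16 to 0.46, adjusted p = 0.357), and its sign turned with median-of-ratios scaling. Ldhb, the subunit typical of heart, was at 113, 121 and 95.9 TPM against 69.4, 73.6 and 69.5 TPM (0.62 ± 0.10). The transporter Slc16a1 (MCT1) was at 183, 180 and 130 TPM against 131, 128 and 132 TPM (0.31 ± 0.13, adjusted p = 0.0596). For both Ldha and Slc16a1, lactic acid 1 and 2 lay above the low-NaHCO3 range and lactic acid 3 below it for Ldha and within it for Slc16a1.

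Mpc1, a subunit of the mitochondrial pyruvate carrier, was higher in low-NaHCO3 medium at 14.4, 10.3 and 14.4 TPM against 4.36, 6.27 and 4.05 TPM (-1.26 ± 0.18). Bsg, the chaperone of the lactate transporters, differed by -0.31 ± 0.09 and by 0.11 under quantile normalization. Among 21 glycolysis genes tested, 9 were higher with lactic acid and 5 were higher at low NaHCO3, which became 5 and 7 with median-of-ratios scaling. The glucose transporter Slc2a1 (GLUT1) was at 72.7, 76.3 and 74.5 TPM against 39.5, 46.9 and 38.1 TPM (0.84 ± 0.09). Tigar, a phosphatase that diverts sugar from glycolysis, differed by 0.93 ± 0.13, the isoform Pfkp by 0.78 and the enolase Eno2 by 0.84. Of 33 genes of pyruvate oxidation and the TCA cycle, 12 were higher with lactic acid and 7 were higher at low NaHCO3 (10 and 13 with median-of-ratios scaling). The 5 glycolysis genes and the 7 of the TCA cycle became 2 and 3 without low NaHCO3 1, and the 5 became 3 without low NaHCO3 2 or 3. For both lists the shares were near the 41.0% and 23.7% of all genes. On the lactic acid side were Ogdh (0.85), Suclg1 (0.84) and Pdk1 (0.65), and on the other Sdhd (-0.78) and Pdk4 (-0.31).

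Genes known from the hypoxia response also split. Of 21 tested of 25 listed, 14 were higher with lactic acid and 6 were higher at low NaHCO3 (median 0.48). The shares of all genes were 41.0% and 23.7%, and that of the 6 was near the latter. Egln3, an oxygen-sensing hydroxylase, was at 34.2, 34.9 and 34.5 TPM with lactic acid and at 6.89, 10.1 and 5.51 TPM in low-NaHCO3 medium (2.1 ± 0.17). Vegfa, the blood vessel growth factor, was at 183, 183 and 159 TPM against 75.4, 81.3 and 67.1 TPM (1.22 ± 0.10), with controls at 131 and 133 TPM. The stress gene Ndrg1 (-1.62) and the peptide hormone Adm (-1.26) were higher in low-NaHCO3 medium, where Ndrg1 reached 29.6, 30.9 and 32.7 TPM against 8.7, 9.05 and 10.6 TPM.

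Carriers that set cell pH were more often higher with lactic acid. Of 15 bicarbonate transporters and sodium-proton exchangers tested (19 listed), 10 were higher there and 1 in low-NaHCO3 medium (median 0.69). The shares of all genes were 41.0% and 23.7%. With quantile normalization the counts were 8 and 2 (median 0.37). The member higher in low-NaHCO3 medium in the main test was Slc4a7 (NBCn1), a sodium-bicarbonate importer. It was at 48.1, 45.2 and 42.8 TPM with lactic acid and 76.7, 70.7 and 66.8 TPM in low-NaHCO3 medium (-0.64 ± 0.08, adjusted p = 0.000264). Both groups were above controls 2 and 3, each at 29.4 TPM.

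Slc4a4 (NBCe1), the sodium-bicarbonate carrier typical of astrocytes, was low throughout, at 1.65, 1.64 and 1.34 TPM against 0.328, 0.596 and 0.494 TPM (0.79 ± 0.14). The chloride-bicarbonate exchangers Slc4a3 (1.30) and Slc4a2 (0.71) export bicarbonate, and Slc4a2 was at 16.4, 17 and 16 TPM against 10.8, 10.1 and 8.34 TPM. Its controls, at 30.3 and 29.3 TPM, were above both groups. The endosomal exchangers Slc9a9 (1.18) and Slc9a7 (0.64) also passed.

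Carbonic anhydrases interconvert CO2 and bicarbonate, and 9 of the 14 listed were below the filter. Of the 5 tested, 3 were higher with lactic acid and 1 were higher at low NaHCO3 (2 and 2 with median-of-ratios scaling). The catalytically inactive relative Car11 was at 29.8, 27.1 and 39.7 TPM against 14.3, 14 and 9.84 TPM (1.27 ± 0.18), and the secreted Car6 differed by 0.78 ± 0.14. Car9, the membrane-bound form known from acidic tumours, was at 10.6, 11.2 and 11 TPM against 12.1, 14.8 and 12.5 TPM (-0.23 ± 0.10, adjusted p = 0.0689). Car2 was listed at 0 in 5 of the 6 libraries.

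Of 16 proton-sensing receptors and acid-sensing channels, 5 were tested. The receptors Gpr4, Gpr65 and Gpr132 were below the filter, at no more than 0.371 TPM in any of the 6 libraries. The acid-sensing channel Asic1 was at 4.81, 5.45 and 4.56 TPM against 2.41, 2.57 and 1.53 TPM (0.92 ± 0.16), and the chloride channel Tmem206, which opens at low pH, at 32.1, 32.9 and 32.4 TPM against 20.6, 22.7 and 17.9 TPM (0.65 ± 0.10). The potassium channel Kcnk2 (-0.51) was higher in low-NaHCO3 medium, as was Asic3 (-1.12), named after its values were seen.

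Fatty acid synthesis genes were higher with lactic acid where they passed, 9 of 13 tested against 0 (median 0.42), and median-of-ratios scaling gave 9 against 3. Scd2, the desaturase of brain lipid synthesis, was at 923, 931 and 832 TPM with lactic acid and at 254, 265 and 228 TPM in low-NaHCO3 medium (1.84 ± 0.09, adjusted p = 6.05e-06). Its controls were higher than both, at 1280 and 1262 TPM. Elovl6, which lengthens fatty acids, was at 39.2, 39.3 and 41.6 TPM against 13.3, 15 and 13.4 TPM (1.47 ± 0.08). Acaca, which fixes bicarbonate to make malonyl-CoA, differed by 0.77 ± 0.09 and the acetyl-CoA synthetase Acss2 by 0.65 ± 0.13. Fasn, the synthase itself, was at 57.6, 57.4 and 58 TPM against 67.6, 74.1 and 56.3 TPM (-0.18 ± 0.10, 95% interval -0.42 to 0.05, adjusted p = 0.149).

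Cholesterol synthesis and uptake did not share that direction. Of 24 members tested, 8 were higher with lactic acid and 6 were higher at low NaHCO3, beside 41.0% and 23.7% of all genes. With median-of-ratios scaling the counts were 7 and 9. The squalene epoxidase Sqle was at 42.5, 42.6 and 40.8 TPM against 19.3, 21.1 and 22.4 TPM (0.97 ± 0.08), and the mevalonate kinase Mvk differed by 1.03 ± 0.17. Hmgcs1, an enzyme early in the pathway, was at 44.3, 42.2 and 34.9 TPM against 54.4, 46.2 and 67.9 TPM (-0.45 ± 0.15), with groups that lay close together. Of 7 genes tested from the cholesterol efflux list, 4 were higher with lactic acid and 0 were higher at low NaHCO3. Among the 4 were the exporter Abca1 (0.99) and the ubiquitin ligase Mylip (1.28), which is not itself an exporter. Under median-of-ratios scaling these counts were 3 and 1.

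Mitochondrially encoded mRNAs took a larger share of the lactic acid libraries. Their sum was 200610 ± 67288 TPM (SD, n = 3) against 105580 ± 2579 TPM, with an exact two-sided permutation p of 0.1, the smallest that 3 against 3 allows. Of the 13 mRNAs, 11 were higher with lactic acid and 0 were lower (median 1.34), and 8 and 0 with quantile normalization. mt-Nd1, a subunit of complex I, was at 30767, 32944 and 56498 TPM against 7420, 7840 and 7864 TPM (2.32 ± 0.29), and its controls at 39502 and 41803 TPM lay within the lactic acid range. The ratio of the sums, 1.9, was 1.53 without lactic acid 3, the library with the largest share.

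The members did not move by a common amount. The other complex I mRNAs mt-Nd4l (2.11), mt-Nd4 (1.69), mt-Nd3 (1.55) and mt-Nd2 (1.5) followed mt-Nd1. Named after their values were seen, the most abundant of them, mt-Co1, was at 62154, 62590 and 99431 TPM against 62196, 60277 and 66269 TPM (0.21 ± 0.39, adjusted p = 0.653), and mt-Atp6 differed by 0.23 ± 0.13 (adjusted p = 0.138).

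Cytosolic ribosomal protein mRNAs had the reverse order. Their sum was 83150 ± 21767 TPM with lactic acid and 119390 ± 6208 TPM in low-NaHCO3 medium (exact two-sided permutation p = 0.1), a ratio of 0.696 that was 0.801 without lactic acid 3. Of 79 genes, 43 were higher in low-NaHCO3 medium and 1 with lactic acid (median -0.61). That count ran from 16 without low NaHCO3 3 to 57 without lactic acid 1, and was 67 with median-of-ratios scaling and 27 with quantile normalization. Rps16 was at 807, 709 and 342 TPM against 1160, 1234 and 1243 TPM (-1.06 ± 0.28), so that lactic acid 3 was the lowest, and Rpl9 (-1.0), Rps19 (-1.01) and Rps10 (-1.45) had the same direction. Nuclear-encoded subunits of complex I gave 2 of 37 higher with lactic acid and 6 higher at low NaHCO3, but 15 higher with lactic acid once lactic acid 3 was left out, so no direction is given for them.

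**Figure D4:**
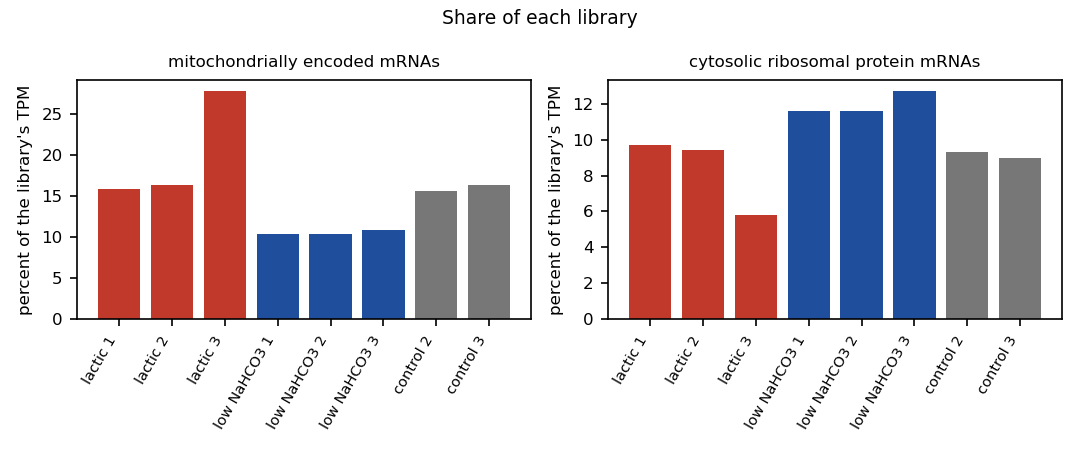
Percent of each library's TPM taken by the 13 mitochondrially encoded mRNAs (left) and by the 79 cytosolic ribosomal protein mRNAs (right), 1 bar per library, for lactic acid (red), low NaHCO3 (blue) and controls 2 and 3 (grey). Lactic acid 3 has the highest bar on the left (27.8%) and the lowest on the right (5.81%).

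Genes of mitosis and cytokinesis were higher in low-NaHCO3 medium. Of 35 tested, 30 passed in that direction and 0 in the other (median -0.59), and 32 and 0 did so with median-of-ratios scaling. Cdk1, the kinase that starts mitosis, was at 181, 183 and 113 TPM against 314, 309 and 305 TPM (-0.99 ± 0.17). Kif23, a motor of cell division, was at 72.6, 68.6 and 70.5 TPM against 171, 175 and 158 TPM (-1.24 ± 0.07, adjusted p = 8.79e-06), and Cdca8 (-1.25), Anln (-1.24) and Cdc20 (-1.01) moved with them. For Cdk1 and Kif23 controls 2 and 3 lay near the lactic acid values, at 196 and 190 TPM and at 73.8 and 74.1 TPM.

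The proliferation antigen Mki67 was at 318, 324 and 428 TPM against 431, 460 and 383 TPM (-0.26 ± 0.13, adjusted p = 0.112), and here the groups overlapped. Genes of DNA replication split, with 14 of 42 higher in low-NaHCO3 medium and 11 with lactic acid, and 24 and 7 with median-of-ratios scaling. Leaving out lactic acid 1 or 2, or low NaHCO3 2 or 3, took the 11 to 7. The helicase subunit Mcm5 (-0.70) and the clamp loader Rfc3 (-0.73) stood against the initiation factor Gins1 (1.01) and thymidylate synthase, Tyms (0.72).

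Transcripts of histone genes stood out among the largest differences. Of 15 tested of 22 listed, 10 were higher in low-NaHCO3 medium and 1, the linker histone H1f0 (0.44), with lactic acid (median -0.93). Hist1h4i, a replication histone H4 gene, was at 18.2, 20.9 and 9.62 TPM against 267, 215 and 348 TPM (-4.05 ± 0.27), the lowest difference among the genes named by rule, with controls at 52.9 and 59.3 TPM. Hist1h2bc was at 10.7, 9.63 and 9.3 TPM against 90.3, 71 and 105 TPM (-3.02 ± 0.14), and its controls at 8.32 and 9.81 TPM matched the lactic acid libraries. Hist3h2ba (-3.69) and Hist1h1c (-1.72) had the same direction, and the pseudogene Hist3h2bb-ps was listed at 0 in all 3 lactic acid libraries and at 9.06, 3.94 and 10.5 TPM in low-NaHCO3 medium. Histone copies are nearly identical, their mRNAs largely lack poly(A) tails, and the labels do not say how RNA was selected for the kit, so these values are uncertain.

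Immediate early genes, which respond within minutes to growth signals, were 14 of 29 higher in low-NaHCO3 medium and 6 with lactic acid. Fosb was at 3, 2.88 and 3.59 TPM against 14.3, 11.1 and 16.8 TPM (-1.85 ± 0.15), and the nuclear receptor Nr4a1 (-1.43), Fosl1 (-1.19) and the mRNA decay factor Zfp36 (-1.19) followed. Jund, an AP-1 subunit, had the other direction (1.13 ± 0.26).

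Targets of YAP and TAZ, coactivators controlled by cell shape and the Hippo kinases, did not move together, with 6 of 16 higher in low-NaHCO3 medium and 4 with lactic acid. The matrix protein Ccn1 was at 498, 511 and 501 TPM against 1599, 1690 and 1567 TPM (-1.68 ± 0.09), and its controls, at 220 and 239 TPM, were below both groups. Ccn2 (-1.01), the Hippo kinase Lats2 (-1.59) and its regulator Ajuba (-1.04) were higher in low-NaHCO3 medium, and Wwc1 (KIBRA) with lactic acid (1.07).

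Within TGF-beta and BMP signalling, 10 of 21 tested were higher with lactic acid and 4 were higher at low NaHCO3 (median 0.26), shares near the 41.0% and 23.7% of all genes. Grem1, a secreted BMP antagonist, was at 117, 116 and 109 TPM with lactic acid and at 18.2, 18.9 and 15.6 TPM in low-NaHCO3 medium (2.63 ± 0.09, adjusted p = 2.15e-06). The receptor Tgfbr2 was at 26.1, 25.9 and 27.9 TPM against 7.92, 8.52 and 7.63 TPM (1.62 ± 0.09), and the BMP targets Id2 (1.84) and Id4 (1.45) passed as well. The feedback inhibitor Smad7, named after its values were seen, had the other direction, at 21, 22.1 and 21 TPM against 37.8, 35.2 and 37.1 TPM (-0.75 ± 0.07).

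Gdf11, a ligand of the same family, was among the 15 highest differences, at 63.9, 59.8 and 62.7 TPM against 7.13, 8.37 and 8.87 TPM (2.79 ± 0.09). Matrix proteases were more often higher with lactic acid, 10 of 17 tested against 4 (median 0.46), beside 41.0% and 23.7% of all genes. The share of the 4 was near the latter. Quantile normalization narrowed this lean to 8 against 6 (median 0.20). Mmp19 was at 16.1, 16 and 16 TPM against 4.06, 3.61 and 3.7 TPM (1.83 ± 0.09), and the aggrecan-cleaving proteases Adamts4 (1.37), Adamts5 (1.31) and Adamts1 (1.33) passed. Of 22 extracellular matrix genes tested, 12 were higher with lactic acid and 4 were higher at low NaHCO3, and 8 and 7 with median-of-ratios scaling. Fibronectin, Fn1, was at 661, 672 and 839 TPM against 583, 584 and 499 TPM (0.38 ± 0.12), while thrombospondin, Thbs1 (-1.31), Sparc (-0.64) and the basement membrane collagen Col4a1 (-0.59) were higher in low-NaHCO3 medium.

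Actin and contractile genes were 9 of 18 higher in low-NaHCO3 medium and 5 with lactic acid (median -0.30). Smooth muscle actin, Acta2, was at 609, 587 and 510 TPM against 1133, 1152 and 1057 TPM (-0.97 ± 0.10), and calponin, Cnn2 (-1.39), and Csrp1 (-0.95) moved with it.

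The largest positive difference was that of Igfbp5, a secreted binder of insulin-like growth factors, at 86.2, 90.5 and 171 TPM against 3.58, 3.41 and 3.47 TPM (4.63 ± 0.23, adjusted p = 6.05e-06). Lactic acid 3 was its highest value, and controls 2 and 3 stood at 57.9 and 76.8 TPM. Igfbp3 was at 308, 291 and 328 TPM against 49.1, 51.8 and 51.2 TPM (2.58 ± 0.07), with controls at 278 and 295 TPM. For both binding proteins the low-NaHCO3 libraries were thus below both controls. Among 21 growth factors and receptors tested, 7 were higher with lactic acid and 5 were higher at low NaHCO3, beside 41.0% and 23.7% of all genes. With median-of-ratios scaling the counts were 4 and 6. The ligand Pdgfc (1.77) was higher with lactic acid, and the EGF receptor ligands Hbegf (-1.20) and Areg (-1.19) in low-NaHCO3 medium.

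P2rx3, an ATP-gated channel known from sensory neurons, was at 19.5, 16.7 and 18.1 TPM with lactic acid and 0.762, 1.88 and 0.67 TPM in low-NaHCO3 medium (3.23 ± 0.20). Its controls, at 4.7 and 5.3 TPM, lay between the groups. The glial connexin Gjc3 (2.69), the neuregulin receptor Erbb3 (2.52), the immune checkpoint ligand Cd200 (2.57), the membrane protein Gas1 (2.59), the ephrin Efna4 (2.47), the transporter Slc35g1 (2.81), the corepressor Tle6 (2.44) and the sulfotransferase Chst12 (2.42) completed the upper end together with Chrng, described with the muscle genes. At the lower end, beside the genes above, stood Trim34a (-3.10) and the interferon-linked Phf11d (-3.04). For Gjc3 and Erbb3 the controls were near the lactic acid libraries, with Erbb3 at 38.4 and 40.9 TPM in the controls and 35.5, 33.5 and 38.6 TPM with lactic acid.

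Clock genes gave 8 of 19 higher in low-NaHCO3 medium and 6 with lactic acid. Per1, a repressor of the clock that stress and cAMP also induce, was at 20, 18.2 and 22.8 TPM against 125, 92.9 and 134 TPM (-2.46 ± 0.14, adjusted p = 8.96e-06), with controls at 11.1 and 12 TPM. The repressors Nr1d1 (-1.45), Ciart (-1.41) and Cry2 (-0.98) had the same direction, and the nuclear receptor Rorb (1.35) the other.

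Autophagy genes were more often higher in low-NaHCO3 medium, 12 of 24 against 2 (median -0.30). Atg13, a subunit of the kinase complex that starts autophagosomes, was at 34.7, 35.8 and 34.4 TPM against 86.1, 84.8 and 84.1 TPM (-1.26 ± 0.07, adjusted p = 6.38e-06). The conjugation factor Atg12 (-1.08), the receptor Nbr1 (-0.90) and the membrane proteins Gabarapl1 (-0.96) and Gabarapl2 (-0.95) passed too. Lysosomal genes split, with 13 of 40 higher in low-NaHCO3 medium and 11 with lactic acid, and 18 and 6 with median-of-ratios scaling. Without lactic acid 1 the 11 became 7, and without low NaHCO3 1 the 13 became 8. The sialidase Neu1 was at 50.5, 51.4 and 49.2 TPM against 18.3, 15.9 and 14 TPM (1.60 ± 0.10), and Cd68, a lysosomal glycoprotein, at 201, 194 and 251 TPM against 101, 102 and 100 TPM (1.07 ± 0.10). The hexosaminidase subunit Hexa was the other way round (-1.07 ± 0.08).

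**Figure D5:**
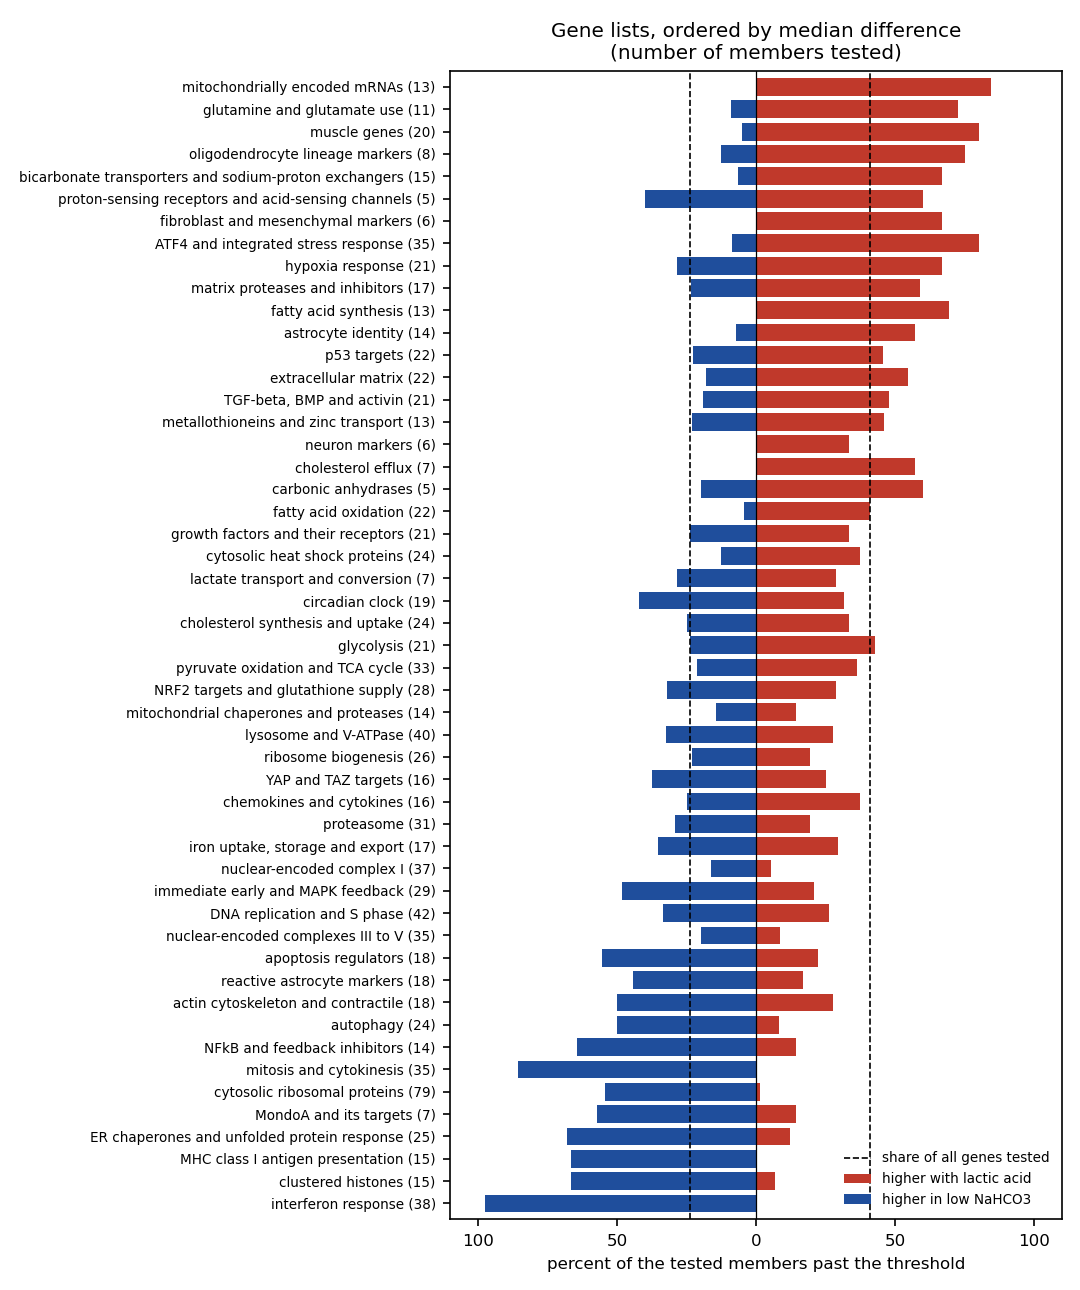
Percent of the tested members of each gene list that were higher with lactic acid (red, right) or higher in low-NaHCO3 medium (blue, left), ordered by median difference, with the number tested in parentheses and dashed lines at the shares of all genes, 41.0% and 23.7%. Mitochondrially encoded mRNAs are at the top and interferon genes, with 37 of 38 members in blue, at the bottom.

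Iron and redox genes had members on both sides. Of 17 iron genes tested, 6 were higher in low-NaHCO3 medium and 5 with lactic acid. The transferrin receptor Tfrc was at 108, 111 and 85.2 TPM against 182, 158 and 196 TPM (-0.81 ± 0.12), and both groups were below controls 2 and 3, at 279 and 262 TPM. The mRNAs of the ferritin chains, which store iron, had the same direction (Ftl1 -0.63, Fth1 -0.57), as had the mitochondrial iron importer Slc25a28 (-1.33). Of 28 NRF2 targets and glutathione genes tested, 8 were higher with lactic acid and 9 were higher at low NaHCO3, with G6pdx (0.88) and Ephx1 (0.81) against Taldo1 (-0.87) and Abcc1 (-0.70), and Hmox1 differed by -0.24. The balance of these counts turned with scaling, to 6 and 11 with median-of-ratios scaling and 12 and 9 with quantile normalization, and the iron counts became 9 in low-NaHCO3 medium and 4 with lactic acid with the former. The zinc exporter Slc30a4 was at 337, 336 and 280 TPM against 114, 124 and 118 TPM (1.41 ± 0.09), while the metallothionein Mt1 differed by 0.25 ± 0.09 and Mt2 did not pass (adjusted p = 0.0797).

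Cell death and p53 lists also had members on both sides. Among 18 apoptosis regulators, 10 were higher in low-NaHCO3 medium and 4 with lactic acid, with the caspase activator Diablo (-1.29) and the inhibitor Birc2 (-1.18) against Bid (0.99) and Casp9 (0.92). Of 22 p53 targets, 10 were higher with lactic acid (Ccng1, 0.78, among them) and 5 in low-NaHCO3 medium, the death gene Bbc3 (-0.78) among them. Their differences ran from -1.64 to 1.06, the 2 shares were near those of all genes (41.0% and 23.7%), and quantile normalization gave 8 and 8.

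The astrocyte label was checked against markers. Of 24 astrocyte genes, 10 were below the filter, and these included the defining markers Gfap (at 0.126 to 1.19 TPM), Aqp4, Aldh1l1, the glutamate transporters Slc1a2 and Slc1a3, and Gja1, none of which exceeded 1.19 TPM in any of the 6 libraries. Of the 14 tested, 8 were higher with lactic acid and 1 were higher at low NaHCO3. Vimentin, Vim, the filament of immature glia, was at 1774, 1694 and 1389 TPM against 2494, 2678 and 2350 TPM (-0.64 ± 0.13). The glial factor Sox9 was at 52.5, 50.2 and 50.9 TPM against 35.7, 34.2 and 35.6 TPM (0.53 ± 0.07), and the radial glia gene Fabp7 (1.84), Nfib (1.0) and Nfia (0.97) passed.

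Reactive astrocyte markers, many of them interferon genes, gave 8 of 18 tested higher in low-NaHCO3 medium and 3 with lactic acid. Gbp2 (-3.62), Iigp1 (-2.34) and the cytokine Clcf1 (-1.57) were among the former, and the protease inhibitor Serpina3n (1.71) among the latter, at 31.1, 35.3 and 46.2 TPM against 9.65, 11 and 11.1 TPM.

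Markers of other cell types differed too, and their part in the differences above was not tested. Of 13 oligodendrocyte-lineage genes, 8 were tested and 6 were higher with lactic acid against 1, with summed levels of 203, 202 and 222 TPM against 119, 120 and 114 TPM. Sox10 was at 121, 118 and 141 TPM against 77.8, 80.2 and 74.1 TPM (0.70 ± 0.09), Cnp differed by 1.35 and Olig1 by 1.70. Of 14 neuron genes, 6 were tested and 2 were higher with lactic acid, the defining Snap25, Syt1 and Rbfox3 were below the filter, and the sum was 464, 471 and 459 TPM against 476, 484 and 447 TPM. Of 14 microglia and macrophage genes, 4 were tested, 3 were higher with lactic acid and 1 in the other group, and Aif1, P2ry12, Csf1r, Ptprc and C1qa were below the filter. Their sums of 295, 289 and 327 TPM against 163, 172 and 173 TPM came mostly from genes that other cells also express, among them Cd68 at 201, 194 and 251 TPM against 101, 102 and 100.2 TPM. The microglial membrane protein Tmem119 was at 9.2, 10.2 and 6.04 TPM with lactic acid and 1.26, 1.84 and 0.461 TPM in low-NaHCO3 medium (2.14 ± 0.26). The microglial receptor Cx3cr1 had the opposite direction and, named after its values were seen, was at 0.219, 0.285 and 0.239 TPM with lactic acid and 2.42, 2.78 and 3.85 TPM in low-NaHCO3 medium (-1.67 ± 0.16). Endothelial and mural genes (4 of 12 tested, 2 higher with lactic acid, among them Pdgfrb at 1.09) summed to 68.4, 69.4 and 71.4 TPM against 41.8, 46.9 and 41.7 TPM. Fibroblast genes (6 of 13 tested, 4 higher with lactic acid, among them Col3a1 at 0.67) summed to 84.6, 79.6 and 75.9 TPM against 52.2, 52.6 and 51.8 TPM.

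Skeletal muscle genes were present in both groups and were mostly higher with lactic acid. Of 28 listed, 20 were tested, 16 were higher with lactic acid and 1 were higher at low NaHCO3 (median 0.83), and the sums were 612, 627 and 632 TPM against 318, 344 and 332 TPM, with controls 2 and 3 at 659 and 737 TPM. Chrng, the fetal subunit of the muscle acetylcholine receptor, was at 22.5, 20.3 and 20.8 TPM against 2.36, 3.3 and 4.17 TPM (2.40 ± 0.15). The myogenic factors Myod1, at 23.1, 26.2 and 26.5 TPM against 8.42, 9.94 and 8.89 TPM (1.38 ± 0.10), Myf6 (1.41) and Myog (1.88) and the troponin Tnnt3 (1.51) had the same direction. Skeletal actin, Acta1, was the exception, at 7.83, 8.64 and 6.77 TPM against 34.2, 44.8 and 36.3 TPM (-2.17 ± 0.13), the same direction as the smooth muscle actin Acta2.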

How the data were processed

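Total RNA of C8-D1A cells was extracted with Trizol and made into NEBNext Ultra II libraries, per the labels' protocols. Per the labels, descriptions of control and CO2 replicates read CO3 and CO4, and reagent numbers rise by 1 per replicate, which was read as a copying error. The authors deposited TPM for 21959 Ensembl genes, with each library summing to 1000000. Per the submitters' processing notes, reads passed through fastp 0.22.0 and HISAT2 2.1.0 with GRCm39. The counter, annotation and strand setting behind the TPM were not given in the sources used here, so reads of near-identical or overlapping genes may have been divided.

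Values were computed as log2(TPM + 1), which understates the change of low genes, from the deposited TPM, for genes at 1 TPM or more in at least 3 of the 6 libraries. They were tested in R 4.3.3 with limma 3.58.1 (trended eBayes, two-sided, the 6 libraries only, Benjamini-Hochberg adjustment, threshold 0.05), after tests on simulated data. Sums of TPM were compared by exact two-sided permutation. Symbols came from GENCODE M21 by Ensembl ID (21851 matched, 108 not, and 26 repeated a symbol), which also gave transcript lengths. Because M21 belongs to an older build, no gene coordinates are given, and promoter windows are those of RefSeq on GRCm38.p6.

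The comparison and its 53 lists (1246 genes) were chosen with earlier results of these data known. Named genes were the 15 highest and 15 lowest differences past the threshold with groups that did not overlap, a mean of at least 5 TPM in 1 group and no predicted or clone-based name, up to 5 members per list by the same criteria (or the 2 most abundant where none met them), and a panel of 46 genes, of which 9 were below the filter. Not every gene the rule names is printed, and some genes are not reported here. Alternatives were quantile normalization, median-of-ratios scaling, omission of mitochondrial and the 10 most abundant genes, no filter, a filter at 5 TPM, log2(TPM + 0.1), robust and untrended eBayes, a fit of all 12 libraries, a block by replicate number, and omission of each library. Fits of 11 libraries (without control 1) and of 9 (without controls) were chosen after seeing the data.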

Additional observations from a re-analysis of the deposited data

How the results depend on the processing

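The 7687 genes past the threshold were 8026 with median-of-ratios scaling, 7318 with quantile normalization, 8138 without mitochondrial and the 10 most abundant genes, 5975 in the fit of all 12 libraries, 8083 without control 1 and 7849 without controls. The 63.4% of calls that were higher with lactic acid became 49.8%, 51.8% and 73.5% under the first 3 of these. Among genes at least 1 log2 unit apart the 1262 higher with lactic acid and 469 higher in low-NaHCO3 medium became 938 and 697 with median-of-ratios scaling and 646 and 668 with quantile normalization. The median difference of 0.15 over all genes was 0.0001 with median-of-ratios scaling, 0.017 with quantile normalization, 0.069 with no filter and 0.29 without mitochondrial and the 10 most abundant genes. Single genes changed sign: Ldha (-0.0096 with median-of-ratios scaling), and Arrdc1 and Bsg (-0.0083 and 0.11 with quantile normalization). The cause was not tested. Of 270 genes the rule names and that are reported, 244 kept direction and side of the threshold in the 12-library fit, 252 with quantile normalization and 259 with median-of-ratios scaling.

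With the replicate number as a block 7559 genes passed, and 6 named genes lost and 1 gained the call. Same-numbered libraries did not deviate together (Pearson r of -0.0427, -0.0941 and -0.1395 over genes, against -0.0866 to 0.1158 for other pairs), and no sample correlated best with its own number. Deviations were taken from group means, so these values depend on each other and cannot exclude a pairing. Leaving out each library in turn gave 6501 to 8353 genes past the threshold, 1624 to 1888 of them at least 1 log2 unit apart, and a median of 0.12 to 0.18. A depth that is unknown leaves genes at a few TPM without counting intervals.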

Other observations

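Several gene groups outside the main contrasts had members on both sides. Among 24 cytosolic heat shock proteins, 9 were higher with lactic acid and 3 at low NaHCO3, beside 41.0% and 23.7% of all genes. The share of the 9 was near the former. With median-of-ratios scaling the counts were 8 and 7. The co-chaperones Dnajb5 (0.70 ± 0.10) and Bag3 (0.65 ± 0.13) were higher with lactic acid, and Dnajb6 (-0.82 ± 0.10) and the small heat shock protein Cryab (-0.81 ± 0.15) at low NaHCO3. Cryab was at 284, 273 and 188 TPM against 440, 447 and 401 TPM. Of 14 mitochondrial chaperones and proteases, 2 passed in each direction, the inner membrane proteases Oma1 (0.81) and Yme1l1 (-0.60) among them, and 1 and 6 with median-of-ratios scaling. With quantile normalization 7 were higher with lactic acid and 2 at low NaHCO3. In the main test the 2 higher with lactic acid became 8 without lactic acid 3, and 1 when any other single library was left out. Fatty acid oxidation genes gave 9 of 22 tested higher with lactic acid, Acot1 (1.04 ± 0.12) and the dehydrogenase Acadm (0.63 ± 0.11) among them, and 1 at low NaHCO3. The share of 9 was close to the 41.0% of all genes, and without lactic acid 3 the 9 became 14.

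Of 31 proteasome subunits, 6 were higher with lactic acid and 9 at low NaHCO3, among them Psmd8 at 331, 345 and 317 TPM with lactic acid against 563, 528 and 598 TPM (-0.76 ± 0.08). These counts were 3 and 15 with median-of-ratios scaling, and the 6 became 12 without lactic acid 3 and the 9 became 2, 4 and 3 without low NaHCO3 1, 2 and 3. Ribosome biogenesis genes gave 5 and 6 of 26 (4 and 12 with median-of-ratios scaling), and the 5 became 8 without lactic acid 3 and the 6 became 1, 3 and 2 without low NaHCO3 1, 2 and 3. The nucleolar proteins Nop56 (0.55 ± 0.08) and Gnl3 (-0.64 ± 0.12) were on opposite sides. Nuclear-encoded subunits of complexes III to V gave 3 and 7 of 35 (2 and 16 with median-of-ratios scaling), and the 3 became 11 without lactic acid 3. Without low NaHCO3 3 the counts were 5 and 3, so no direction is given for this list. Uqcrh, a subunit of complex III, was at 453, 434 and 225 TPM against 553, 538 and 645 TPM (-0.70 ± 0.25), with lactic acid 3 the lowest. Zinc transporters and metallothioneins gave 6 of 13 higher with lactic acid and 3 at low NaHCO3, shares near the 41.0% and 23.7% of all genes. Without mitochondrial and the 10 most abundant genes the counts were 10 and 3.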
